A study of Mus musculus with 8 samples.

Results

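The Regenerating (Reg) family of secreted C-type lectins was followed through 8 two-colour microarrays of mouse small intestinal organoids, by taking every non-control probe whose gene name on the array design equalled Reg1, Reg3a, Reg3b, Reg3g or Reg4. All 5 genes were found, each with 1 probe, among 19335 genes kept because a channel of 2 or more arrays lay well above background. All 5 passed that filter, and all 5 were well above background in all 16 channels. Their relatives Reg2 and Reg3d, also measured by 1 probe each, are given for comparison. These 2 probes are dim, brighter than 35.2% and 51% of genes. Their lowest raw signals were 1.5 and 1.8 times the local background, against 52.2 times or more for the 5 members.

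Reg proteins are small secreted lectins. In the gut, Reg3g and Reg3b are made by Paneth cells and enterocytes and are known as antibacterial proteins, Reg3g binding the peptidoglycan of Gram-positive bacteria. Their transcription is classically driven by microbial signals through Myd88 and by the cytokine IL-22 through Stat3. Reg1 was first described as a growth factor of regenerating pancreatic islets, Reg3a is another secreted member of the Reg3 group, and Reg4 marks secretory cells of the crypt, enteroendocrine cells among them. Ascl2, a Wnt target, is a helix-loop-helix factor that marks intestinal stem cells, and Tcf7l2 (Tcf4) is the DNA-binding partner through which Wnt signals act in that epithelium.

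Each array set the RNA of 1 condition against a control RNA in the other dye, Cy5 or Cy3, and all organoids had received a 16 h pulse of 4OH-tamoxifen. In experiment 1, organoids transduced with Ascl2, whose CMV-driven expression the pulse induces, were compared with VillinCreERT2 organoids on 2 arrays with the dyes exchanged, RNA being taken 24 h later. In experiment 2, the control was dsGFP transduced, the pulse inducing GFP in it while it induced Ascl2 or deleted Tcf7l2 in the others, and 1 array each held organoids overexpressing Ascl2 (Ascl2_OE), organoids with Tcf7l2 deleted (Tcf7l2null) and organoids with both changes. In experiment 3, 1 array set Ascl2null organoids against VillinCreERT2 organoids. The villin promoter of VillinCreERT2 limits recombination to intestinal epithelium, and the labels do not say how many mice or organoid lines were used. In experiments 2 and 3, 1 further array each carried the control RNA in both dyes (self-self), and these 2 arrays show the technical spread. The genotype label of the experiment 3 self-self array reads VillinCreERT2, whereas its description names Ascl2loxp/loxp organoids; the genotype label was used.

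The labels do not say whether the dye-exchanged pair of experiment 1 holds RNA of separate cultures. The p-values therefore reflect only how far these samples differ, and that spread may be technical. Each experiment was run on its own slide with its own control, so experiment, slide and control cannot be told apart. Between 50.1% and 67.4% of the spots were well above background per channel, and no spot was flagged as saturated. Of the markers listed for the intestinal epithelium, 21 of 22 enterocyte genes, 12 of 16 Paneth cell genes and 15 of 16 goblet cell genes were well above background on all 8 arrays, against 3 of 12 immune and stromal genes. The Ascl2 probe was not higher on the arrays labelled as overexpressing it: it stood at -0.31, 0.12 and -0.72 (log2 own RNA over control) on the 3 Ascl2_OE arrays, at -0.92 on Tcf7l2null with Ascl2_OE and at -1.07 on the Ascl2null array against 0.01 and -0.26 on the self-self arrays. The Tcf7l2 probe stood at -0.34 on the Tcf7l2null array against 0.37 and -0.34 on the self-self arrays. Conditions are therefore named by their labels, which the probes of the targeted genes do not bear out for Ascl2_OE and Tcf7l2null. Of these 2 probes it is not known here whether they lie inside the introduced or the deleted sequence.

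Because Reg genes resemble each other, the array probes were compared first. The first 30 bases of the 4 probes that the results turn on, from the array design, show how far they differ:
Reg3g probe: gagtacagaattgacatcatgggttgatat
Reg3b probe: gtgaagactcacctagaaaaagcattttct
Reg3a probe: cccatgacaagggatgaaatacaagaattc
Reg1 probe: ggaccatctatcaaaagcaaattagatcct
Over the full 60 bases, no 2 of the 7 family probes shared a run of more than 8 bases, and the longest run shared by any of the 21 pairs lay between 5 and 8 bases. Probes were compared only with each other and not with the transcripts of the other family genes. Whether a probe also binds the transcript of another family gene was therefore not tested. The Reg3g probe lies at chr6:78416420-78416479 (minus strand), the Reg3b probe at chr6:78323323-78323382, the Reg3a probe at chr6:78333635-78333694 and the Reg1 probe at chr6:78378527-78378586 (plus strand), all in mm9 coordinates of the array design. The Reg4 probe, on chromosome 3, covers 60 bases of transcript that span 3247 bases of genome, so it crosses a splice junction.

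In the RefSeq gene table of assembly GRCm38.p6, the 6 family genes other than Reg4 lie within 97990 bases of chromosome 6 with 1 further entry, the pseudogene Gm52853, between them. Their order is Reg3b, Reg3d, Reg3a, Reg2, Reg1 and Reg3g, so Reg3b and Reg3g, the 2 genes with the most alike upstream sequence, sit at opposite ends. For each gene 250 bases before the start site were read from the RefSeq promoter table of the same assembly, which held all 7. The window of Reg4, chr3:98221906-98222155, runs past the gene's start at 98222138 in the gene table, whereas the other 6 end where their gene begins. Aligned end to end, the upstream sequences of Reg3b and Reg3g were 68.9% identical and those of Reg1 and Reg2 58.5%, and the other pairs lay between 47.8% and 54.5%. The upstream sequences of Reg3g, Reg3b and Reg1, the 3 members with values above 0 on the Ascl2_OE array of experiment 2, are printed to show these matches, with the motifs named below in capitals:
Reg3g upstream, chr6:78468875-78469124, minus strand: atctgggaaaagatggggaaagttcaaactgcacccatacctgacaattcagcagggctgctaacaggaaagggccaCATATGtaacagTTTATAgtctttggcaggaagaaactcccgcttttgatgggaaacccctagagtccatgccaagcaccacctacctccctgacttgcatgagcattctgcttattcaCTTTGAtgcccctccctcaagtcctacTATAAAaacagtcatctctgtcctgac
Reg3b upstream, chr6:78370635-78370884, plus strand: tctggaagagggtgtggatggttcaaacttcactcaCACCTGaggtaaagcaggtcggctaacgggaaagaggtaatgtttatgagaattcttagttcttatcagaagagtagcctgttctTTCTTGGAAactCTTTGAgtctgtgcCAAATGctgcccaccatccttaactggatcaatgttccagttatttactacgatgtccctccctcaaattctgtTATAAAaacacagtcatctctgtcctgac
Reg1 upstream, chr6:78425733-78425982, plus strand: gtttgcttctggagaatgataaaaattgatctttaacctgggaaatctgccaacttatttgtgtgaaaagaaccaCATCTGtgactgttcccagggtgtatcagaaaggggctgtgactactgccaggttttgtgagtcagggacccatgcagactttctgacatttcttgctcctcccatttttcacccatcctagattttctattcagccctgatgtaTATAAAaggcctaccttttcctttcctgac
The motifs marked are CANNTG, the general E-box bound by basic helix-loop-helix factors, CTTTGA, the core of TCF sites, TTCNNNGAA, the Stat site, and TATAAA, all searched on both strands among 21 motifs in all. CANNTG occurred in 7 of 7 family sequences against 66.2% of all 32851 promoters in the table. CAGCTG, the E-box form with that centre and a subset of CANNTG, was in 0 of 7 family sequences and in 13.0% of all promoters. CTTTGA occurred in 4 of 7 (Reg3a, Reg3b, Reg3g and Reg2) against 13.8%, TATAAA in 4 of 7 (Reg1, Reg3b, Reg3g and Reg2) against 12.4%, and TTCNNNGAA in 2 of 7 (Reg3b and Reg3d) against 7.02%. A match is a description of letters in this window and no evidence of binding.

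Reg3g was the gene of the family that was higher with Ascl2 overexpression on every array. Its log2 own RNA over control, before the dye term, was 1.56 and 1.15 on the 2 arrays of experiment 1, 1.53 on the Ascl2_OE array of experiment 2 and 1.76 where Ascl2 was overexpressed in Tcf7l2null organoids. Above 0 on all 3 arrays of Ascl2_OE alone were 16.1% of all genes, and Reg3g was the 1 member among them. Both self-self arrays, at 0.00 and 0.27, lay below all 4 of these values, as did Tcf7l2null alone at 0.29 and Ascl2null at 0.42. On the 3 Ascl2_OE arrays Reg3g was above at least 99.6% of all genes measured.

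Fitted with limma over all 8 arrays, with a dye term shared by the arrays and an own effect for each other condition, Reg3g rose by 1.36 ± 0.09 on the log2 scale (estimate ± SE, 3 Ascl2_OE arrays; 95% interval 1.13 to 1.58), which is 2.56-fold, with a Benjamini-Hochberg adjusted p of 0.0328. It had the smallest p of the 19335 genes tested and ranked 5 from the highest estimate. The background of this comparison is 12 genes called, 0.0621% of those tested, 6 higher (0.031%) and 6 lower (0.031%), so 1 of the 5 Reg genes was among 12 in all. The 2 arrays of experiment 1 alone gave 1.35 ± 0.12 (limma adjusted p = 0.0223, where 0.926% of genes were called, 0.362% higher and 0.564% lower), and the single Ascl2_OE array of experiment 2 gave 1.36 after the dye term. The difference between the experiments was 0.01 ± 0.23 (95% interval -0.54 to 0.55), but 0.74 (adjusted p = 0.555) with the authors' deposited table. Over all genes, the 3 pooled arrays were little alike across experiments. The ratios of the experiment 2 Ascl2_OE array had a Pearson r of 0.11 and 0.09 with those of experiment 1, and 0.61 with Tcf7l2null with Ascl2_OE. The 2 arrays of experiment 1 had 0.38 with each other, and 0.56 and 0.46 with Tcf7l2null.

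The call for Reg3g depended on the processing, its direction did not. Over 15 alternatives its estimate lay between 0.81 and 1.53, with adjusted p from 0.00734 to 0.965, and it passed 0.05 in 8 of the 16 settings, the reported one included. Leaving out replicate 1 of experiment 1 gave 1.34 (adjusted p = 0.118), leaving out replicate 2 gave 1.41 (adjusted p = 0.965), and leaving out the array of experiment 2 gave 1.35 (adjusted p = 0.0223). With the spots of very high local background kept in the background fit, it was 1.27 (adjusted p = 0.0948). The lowest value, 0.81 (adjusted p = 0.296), came from the authors' deposited table, in which Reg3g reads 0.67 and 0.52 on the arrays of experiment 1, against 1.63 and 1.16 in the log ratio of the scanner files. It was the only 1 of the 7 family genes whose deposited values differed from the scanner ratio by more than 0.02 on any array, as 8.7% and 8.49% of all values did on these 2 arrays and 0% on the other 6.

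**Figure D1:**
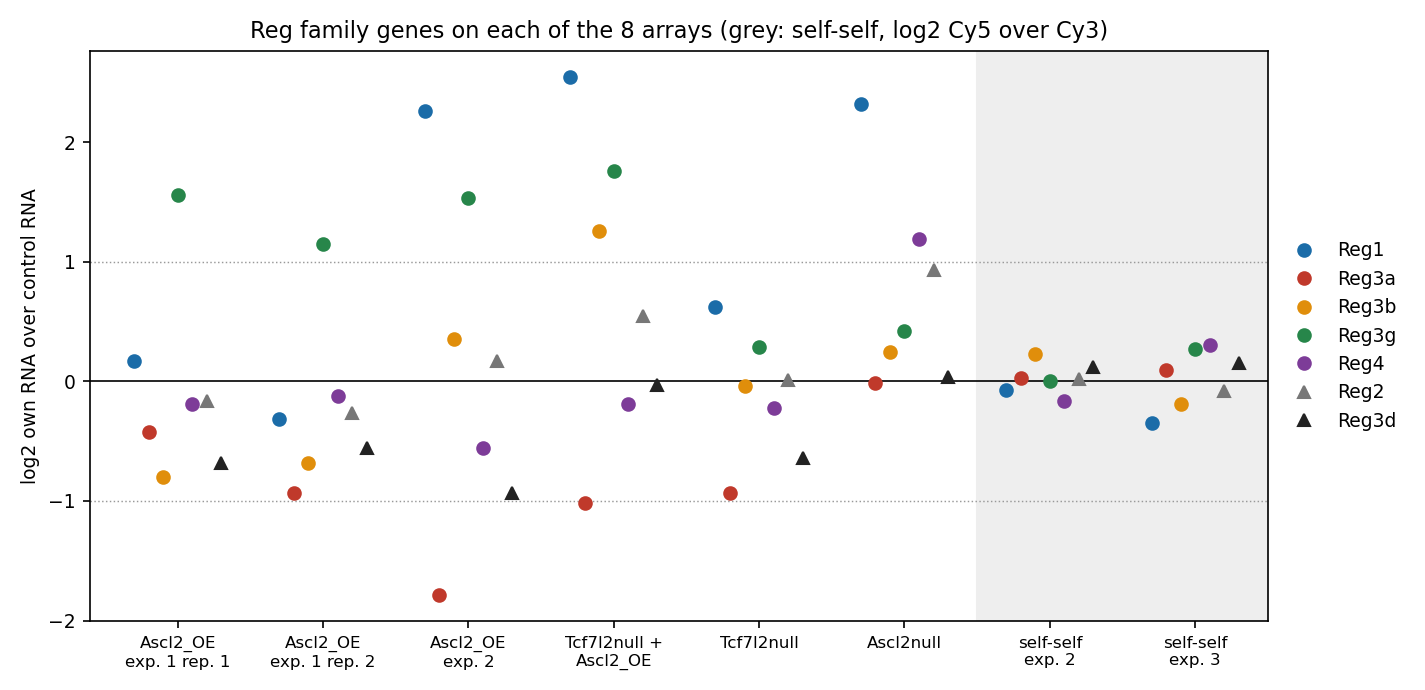
Log2 own RNA over control RNA for each Reg family gene on each of the 8 arrays, before the dye term, with the 2 self-self arrays (log2 Cy5 over Cy3) on grey; dotted lines mark 2-fold. Reg3g lies between 1.15 and 1.76 on the 4 arrays with Ascl2 overexpression, whereas Reg1 is above 2 on the experiment 2 Ascl2_OE array, on Tcf7l2null with Ascl2_OE and on Ascl2null, and near 0 in experiment 1.

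Reg3b, the other antibacterial lectin of the pair, did not follow Reg3g in experiment 1. It stood at -0.80 and -0.68 on the 2 arrays of experiment 1, at 0.35 on the Ascl2_OE array of experiment 2 and at 1.26 in Tcf7l2null organoids with Ascl2_OE. Tcf7l2null alone gave -0.04, Ascl2null 0.24, and the self-self arrays 0.23 and -0.19, so the values of Ascl2_OE in experiment 2 and of Ascl2null were close to those of a control against itself. The gap between Reg3g and Reg3b on the same array was 2.36 and 1.83 in experiment 1, 1.18 on the Ascl2_OE array of experiment 2 and 0.50 on the Tcf7l2null array with Ascl2_OE, against -0.23 and 0.46 on the self-self arrays. Over the 3 Ascl2_OE arrays the estimate for Reg3b was -0.42 ± 0.23 (95% interval -0.97 to 0.13, limma adjusted p = 0.53). Experiment 1 alone gave -0.74 ± 0.14 (adjusted p = 0.0706), and experiment 2 minus experiment 1 was 1.11 ± 0.26 (adjusted p = 0.2); neither passed 0.05.

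Reg3a and Reg3d, neighbours in the cluster, were on the low side together. Reg3a stood at -0.42 and -0.94 in experiment 1, -1.79 on the Ascl2_OE array of experiment 2, -0.93 in Tcf7l2null and -1.02 in Tcf7l2null with Ascl2_OE, all below Ascl2null (-0.01) and the self-self arrays (0.03 and 0.10). Its estimate over the 3 Ascl2_OE arrays was -1.04 ± 0.25 (95% interval -1.64 to -0.45), with an unadjusted limma p of 0.00487 and an adjusted p of 0.178, so it is not called. An unadjusted p under 0.05 was found for 12.7% of genes, 5.94% higher and 6.74% lower. The experiments differed by -1.27 ± 0.23 (experiment 2 minus experiment 1, limma adjusted p = 0.0892). Reg3d stood at -0.68 and -0.55 in experiment 1 and at -0.93 on the Ascl2_OE array of experiment 2, with an estimate of -0.72 ± 0.11 (limma adjusted p = 0.0906). It was -0.64 in Tcf7l2null, -0.03 in Tcf7l2null with Ascl2_OE, 0.04 in Ascl2null and 0.12 and 0.15 on the self-self arrays. Below 0 on all 3 Ascl2_OE arrays were 15.3% of all genes.

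**Figure D2:**
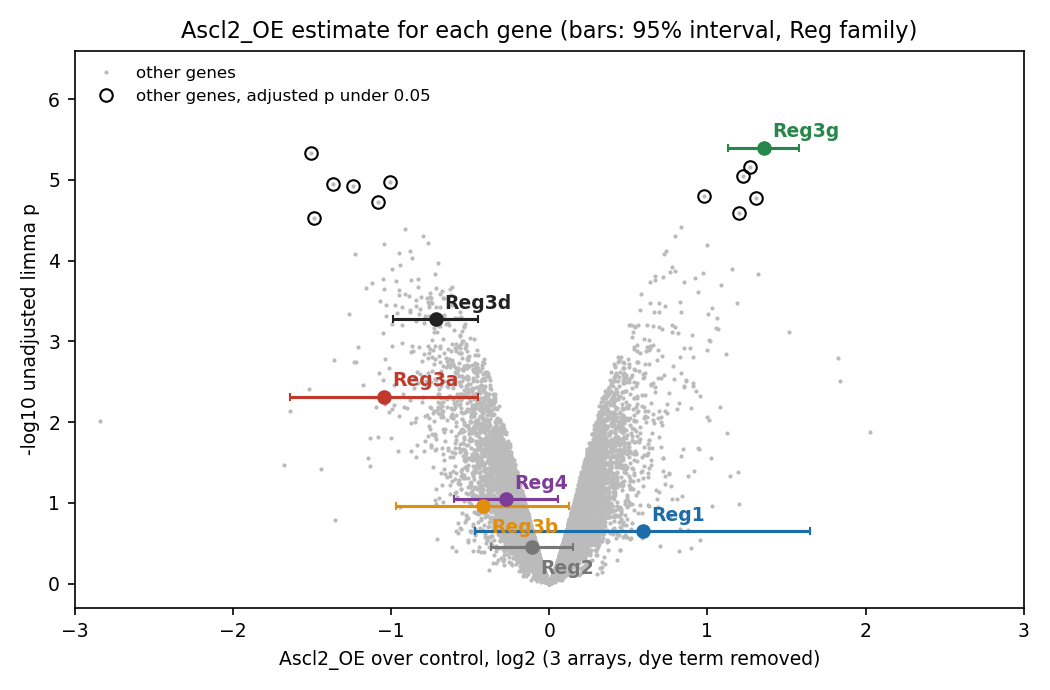
Estimate for Ascl2_OE over control (log2, 3 arrays, dye term removed; horizontal axis) against the unadjusted limma p (minus log10; vertical axis) for 19335 genes; coloured points are Reg family genes with 95% intervals, and open circles are the other genes with an adjusted p under 0.05. Reg3g lies highest, Reg3a and Reg3d lie on the left above most genes, and the wide interval of Reg1 crosses 0.

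Reg1 showed the largest difference between experiments of the family. On the arrays of experiment 1 it stood at 0.17 and -0.31, whereas it was 2.26 on the Ascl2_OE array of experiment 2, 2.55 in Tcf7l2null with Ascl2_OE and 2.32 in Ascl2null. Tcf7l2null alone gave 0.62, and the self-self arrays -0.08 and -0.35. Reg1 was thus close to 5-fold above its control in 1 label with more Ascl2 and in the label without Ascl2 (4.79-fold and 4.99-fold before the dye term), while the same label of more Ascl2 in experiment 1 was not. It was among 69 genes, 0.359% of those measured, that were at least 2-fold higher on those 3 arrays.

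Experiment 2 minus experiment 1 was 2.32 ± 0.33 for Reg1 (log2, 95% interval 1.53 to 3.10, limma adjusted p = 0.0414), which is 4.98-fold. In that comparison 0.762% of genes passed, 0.503% with a higher and 0.259% with a lower value in experiment 2, and Reg1 was the only 1 of the 5 members among them. The model has 2 residual degrees of freedom and sets 1 array against technical spread. Without replicate 1 of experiment 1 the difference was 2.99 (adjusted p = 0.0628) and without replicate 2 it was 2.09 (adjusted p = 0.0241). The estimate over all 3 arrays, 0.59 ± 0.44 (adjusted p = 0.687), averages unlike values, and without experiment 2 it was -0.07. For Reg1 the dye term was 0.35, the largest of the family, and after removing a dye term estimated from the other arrays the self-self arrays stood at -0.54 and -0.88, so a control against itself departed from 0 by up to 0.88 for this probe.

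Reg4 was highest above its control in Ascl2null. It stood at -0.19 and -0.12 in experiment 1, -0.55 on the Ascl2_OE array of experiment 2, -0.22 in Tcf7l2null and -0.19 in Tcf7l2null with Ascl2_OE, whereas Ascl2null gave 1.19. The self-self arrays gave -0.16 and 0.31, and of the 6 values only those of Ascl2null and of experiment 2 Ascl2_OE lay well outside that range. The estimate over the 3 Ascl2_OE arrays was -0.27 ± 0.14 (limma adjusted p = 0.493). After the dye term, Ascl2null stood at 1.24 for Reg4 and 1.97 for Reg1, and these were the 2 members at or beyond 2-fold there, where 3.53% of genes were, 2.14% higher and 1.39% lower. Reg2 was 0.87 on that array, and Reg3a, Reg3b and Reg3g were 0.01, 0.10 and 0.25. For the dim Reg2 probe the authors' deposited table read 1.72 there, against 0.93 here before the dye term. Whether Reg2 reached 2-fold therefore depended on the processing.

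The values of the Ascl2null array depended on the normalisation, and the members are bright probes. Reg1, Reg3a, Reg3b, Reg3g and Reg4 were brighter than 99.5%, 99.2%, 99.4%, 96.5% and 95% of genes. When each array was only centred on its median, in place of the loess curve that follows brightness, Ascl2null read -0.65 for Reg3a, -0.51 for Reg3b, -0.41 for Reg3g, 0.62 for Reg4 and 1.40 for Reg1, and the genes beyond 2-fold on that array split into 211 higher and 1321 lower in place of 414 higher and 268 lower. Under that scaling Reg4 was no longer 2-fold higher, nor was it with a dye term per slide (0.89), and these Reg3 genes were below 0. Reg3a, Reg3b and Reg3g kept their sign in 9, 11 and 12 of 13 alternatives. Reg1 stayed between 1.40 and 2.67 under all 13 alternatives.

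With 1 array each, the Tcf7l2 conditions have no replicate check. After the dye term, none of the 5 members reached 2-fold in Tcf7l2null (0.958% of genes did), the values being 0.28 for Reg1, -0.91 for Reg3a, -0.18 for Reg3b, 0.12 for Reg3g and -0.18 for Reg4. At least 2-fold higher there were 0.424% of genes and 0.533% were lower. Of these values, Reg3a and Reg3b kept their sign in all 13 alternatives, Reg1 and Reg4 in 12 and Reg3g in 11. In Tcf7l2null with Ascl2_OE, 3 of 5 were at least 2-fold higher, against 0.901% of genes (1.73% were lower): Reg1 at 2.20, Reg3g at 1.59 and Reg3b at 1.12. Reg3b was under 2-fold with the scanner log ratio (0.61), the authors' deposited table (0.61), a dye term per slide (0.68) and without replicate 1 of experiment 1 (0.99), whereas Reg1 and Reg3g were at least 1.66 and 1.52 in every alternative. Reg3a stood at -0.997 and Reg4 at -0.15 there. On the Ascl2_OE array of experiment 2, Reg1 and Reg3g were 2 of the 1.13% of genes that were 2-fold higher and Reg3a was among the 0.974% that were 2-fold lower. On the self-self arrays 0.0311% and 1.1% of genes were beyond 2-fold in either direction, and none of the members was.

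The arrays of Tcf7l2null and of Tcf7l2null with Ascl2_OE share a slide and a control RNA. Their difference sets the Ascl2 label against its absence where Tcf7l2 is labelled as deleted, but the control channel also differed between them. For Reg3b the own channel read 17.02 and then 17.35, the control 17.06 and 16.09. For Reg1 the own channel read 17.08 and 17.95, the control 16.45 and 15.40. For Reg3g these were 15.83 and 16.58, and 15.54 and 14.82. The difference therefore holds a change in the control channel as well. It was 1.93 for Reg1, 1.47 for Reg3g and 1.30 for Reg3b, against -0.09 for Reg3a and 0.03 for Reg4, so 3 of 5 members lay at or beyond 2-fold higher, as did 2.89% of genes, while 4.83% were lower. Over 13 alternatives the ranges were 1.92 to 2.06, 1.46 to 1.70 and 0.83 to 1.43, the lowest value of Reg3b coming from the scanner log ratio and the authors' deposited table alike. Set against the Ascl2_OE array of the same slide, Tcf7l2null with Ascl2_OE was higher by 0.90 for Reg3b and Reg3d and by 0.77 for Reg3a. The values for Reg1, Reg3g and Reg4 were 0.29, 0.23 and 0.36. For Reg3b the own channels were near equal (17.35 in Tcf7l2null with Ascl2_OE, 17.33 in Ascl2_OE), whereas the control channels read 16.09 and 16.98.

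**Figure D3:**
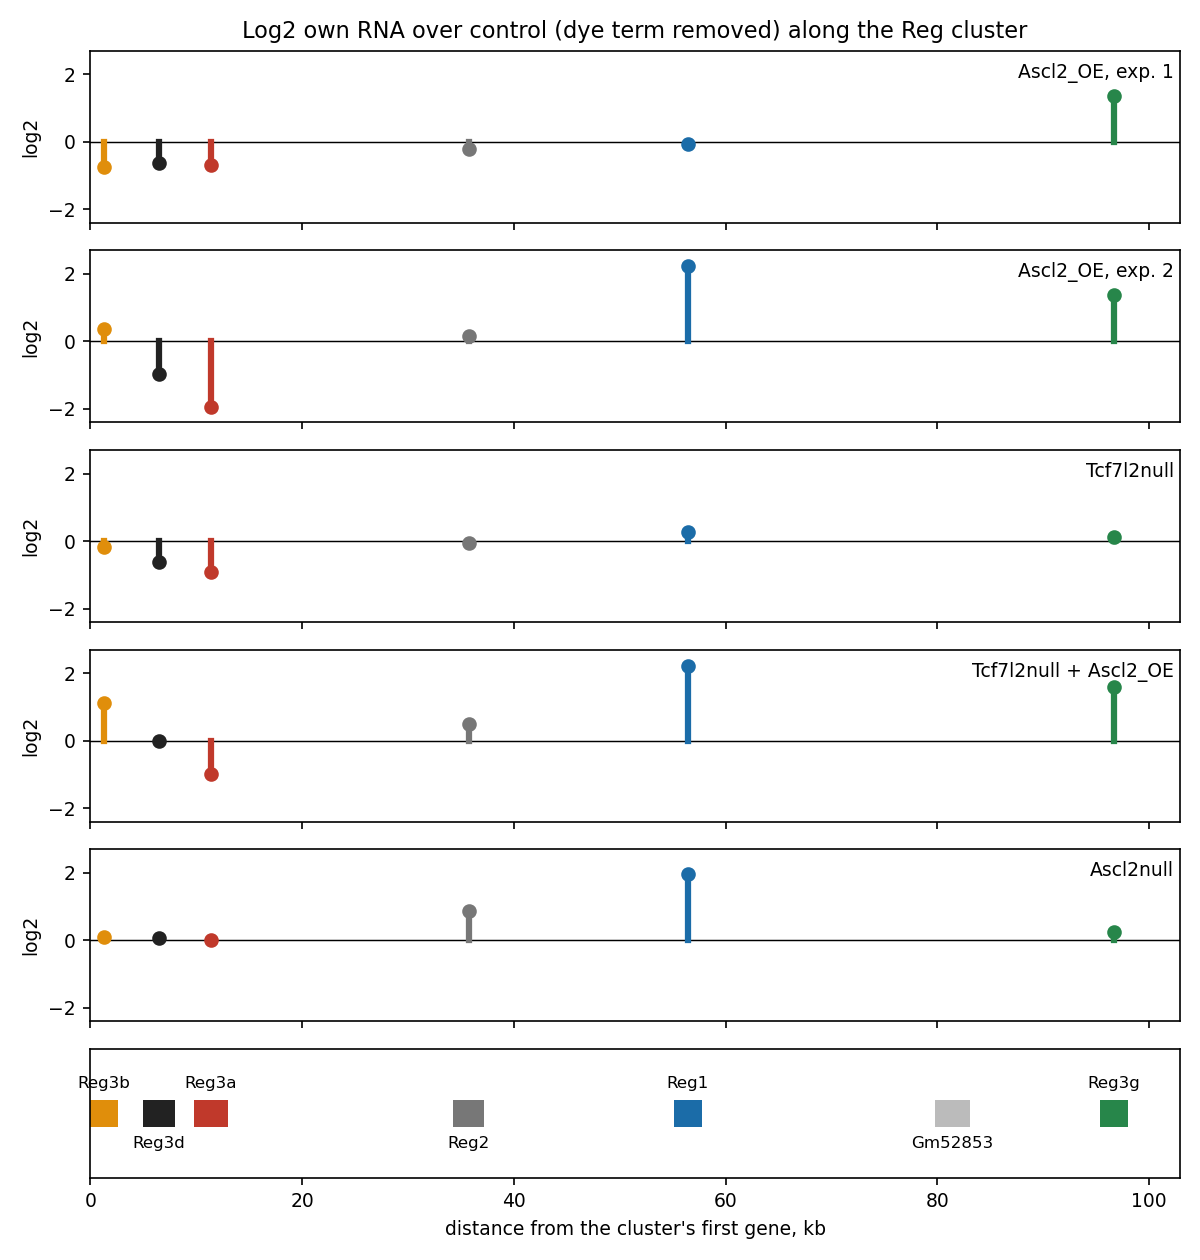
Log2 own RNA over control with the dye term removed (vertical axes) for the 6 Reg genes of the chromosome 6 cluster, by condition, drawn at their distance in kb from the first gene, with gene bodies to scale at the bottom. Reg3b, Reg3d and Reg3a on the left and Reg3g on the right have opposite signs in experiment 1, and Reg1 is near 2 in experiment 2 Ascl2_OE, Tcf7l2null with Ascl2_OE and Ascl2null.

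The level of Reg3g differed more between the control RNAs than between any condition and its own control. The normalised log2 signal of Reg3g in 1 channel was 11.88 and 12.15 in the VillinCreERT2 control of experiment 1, 12.80 to 13.07 in that of experiment 3 (median 12.81 of 3 channels) and 14.82 to 15.54 in the dsGFP control of experiment 2 (median 15.43 of 5 channels). Next to these, Reg3g stood at 13.44 and 13.29 with Ascl2_OE in experiment 1, 13.23 in Ascl2null, 15.83 in Tcf7l2null, 16.58 in Tcf7l2null with Ascl2_OE and 16.62 with Ascl2_OE in experiment 2. In order, the control of experiment 1 was lowest, followed by the control of experiment 3, Ascl2null, Ascl2_OE of experiment 1, the dsGFP control, Tcf7l2null and the 2 Ascl2_OE conditions of experiment 2. Ascl2null and Ascl2_OE of experiment 1, and the last pair, differed by less than the range of the control channels, and Tcf7l2null and Ascl2null lay above their nearest control channel by less than that range. The mean of the dsGFP control was 3.25 above the control of experiment 1 for Reg3g, against 1.096 for Reg4, 0.72 for Reg3b, 0.09 for Reg1 and 0.03 for Reg3a. The 2 VillinCreERT2 controls themselves differed by 1.70 for Reg3a and 1.60 for Reg3d, higher in experiment 1, and by -0.88 for Reg3g.

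For the other members the channel levels ran as follows. Reg1 lay between 15.27 and 16.69 in all 10 control channels. It was at 17.08 to 17.95 in the own channel of Tcf7l2null, Ascl2null, Ascl2_OE of experiment 2 and Tcf7l2null with Ascl2_OE. These own channels were all Cy5 and most control channels Cy3, and the Reg1 dye term was 0.35. How many genes separate as far was not counted. In Tcf7l2null, Reg1 was 0.28 after the dye term and -0.26 with a dye term per slide. Ascl2_OE of experiment 1 (16.10 and 15.88) fell among the controls. Reg3a was between 15.27 and 16.00 in the 3 own channels of experiment 2, again all Cy5, and between 16.65 and 17.07 in its control channels. Reg3b was 15.36 and 15.33 with Ascl2_OE in experiment 1, below its control at 16.00 and 16.17, whereas its own channels of experiment 2 (17.02 to 17.35) overlapped their control (16.09 to 17.07). Reg4 was 14.12 in Ascl2null, above its 3 control channels (12.69 to 13.00). A channel level is uncertain here, and so is a ratio that rests on it. The raw Cy3 signal of the same dsGFP RNA at the Reg1 spot was 82304 on the self-self array. It was 74413.5, 39405 and 27375 on the arrays where the Cy5 signal beside it was 172208, 274809 and 248258. In experiment 3 the Cy3 control signal was 61233 on the self-self array and 37684.5 on the Ascl2null array, beside a Cy5 signal of 181862. For Reg3g the normalised Cy3 level of the dsGFP RNA was 15.43 on the self-self array. It was 15.54 on Tcf7l2null, 15.09 on Ascl2_OE and 14.82 on Tcf7l2null with Ascl2_OE. In experiment 3 the Cy3 control level of Reg3g was 12.80 on the self-self array and 12.81 on the Ascl2null array. A lower control signal gives a higher ratio, so the Reg1 ratios of these arrays share that uncertainty. So do the Reg3g ratios of the 2 arrays of experiment 2 with Ascl2_OE. The cause was not tested.

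**Figure D4:**
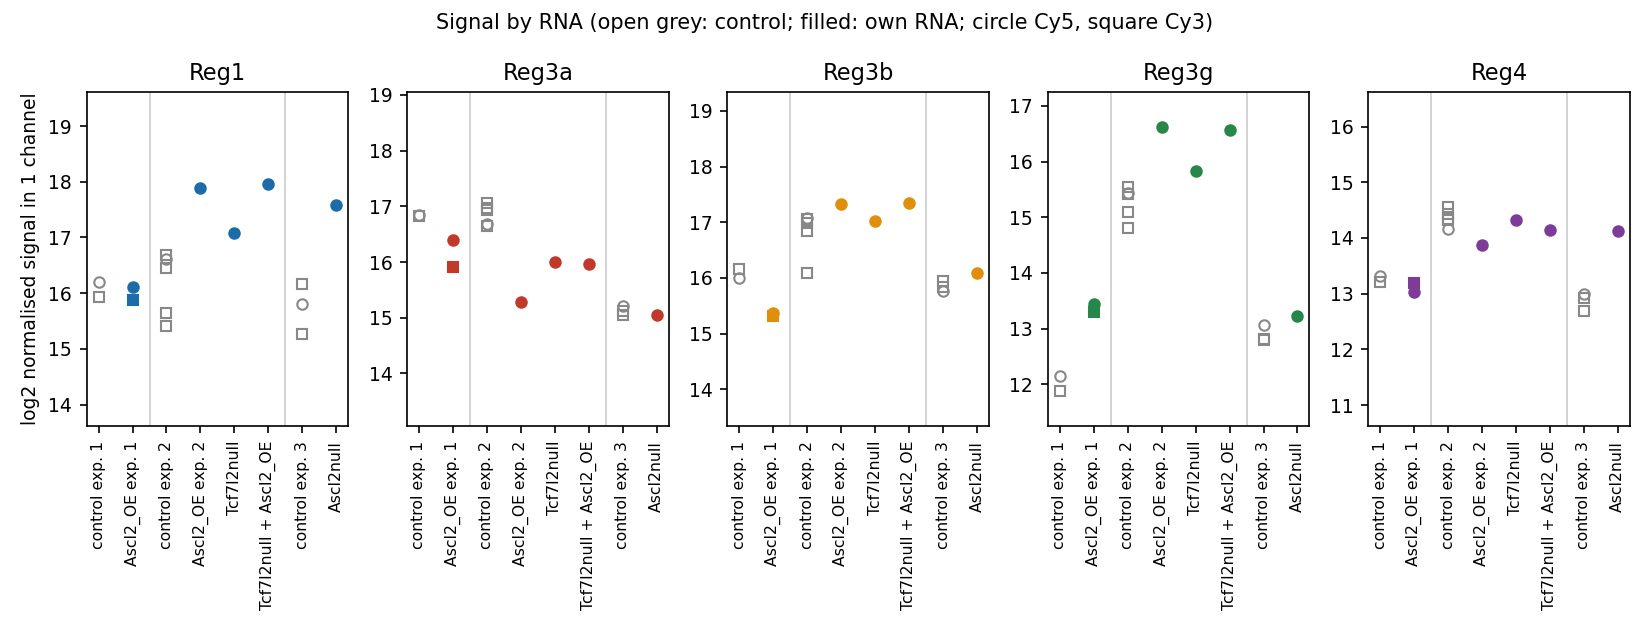
Normalised log2 signal in 1 channel (vertical axes, each spanning 6 units) for the 5 members by RNA; open grey points are control channels, filled points own RNA, circles Cy5 and squares Cy3, and vertical lines separate the 3 experiments. Reg3g is 3.25 higher in the control of experiment 2 than in that of experiment 1, more than its own rise with Ascl2_OE in either.

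Genes of the routes known to induce Reg3 expression were measured alongside: receptors and kinases of IL-22, IL-6 and IL-17 signalling, Stat3 and its feedback genes, Toll-like receptors, Myd88 and NF-kB. Of 30 listed, 29 were measured, and over the 3 Ascl2_OE arrays 0 passed limma's adjusted p of 0.05 in either direction, with 0 higher and 5 lower at an unadjusted p under 0.05 (5.94% and 6.74% of all genes). Their median was -0.05, beside 0.00 over all genes. The highest was Tlr4, a receptor for bacterial lipopolysaccharide, at 0.27 ± 0.13 (limma adjusted p = 0.455), and the lowest Il18, a cytokine made by epithelium, at -0.71 ± 0.08 (adjusted p = 0.079). In experiment 1 alone 1 of 29 passed, Il18, at -0.73 ± 0.11 (limma adjusted p = 0.0471, lower).

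Nfkbiz, an inducible regulator of NF-kB target genes, was the highest of that list on the Ascl2_OE array of experiment 2 at 1.03 and in Tcf7l2null with Ascl2_OE at 0.87, where Tlr2 was lowest at -0.52. Before the dye term Nfkbiz was -0.17 and -0.45 in experiment 1, -0.20 in Tcf7l2null, 0.35 in Ascl2null and 0.07 and -0.10 on the self-self arrays, so it was high on the same 2 arrays of experiment 2 as Reg1 but not on Ascl2null, where it was 0.10 after the dye term. In Tcf7l2null the ends of the list were Tlr4 at 0.42 and Tlr9, a sensor of bacterial DNA, at -0.81. In Ascl2null they were the kinase Tyk2 at 0.90 and Nfkb1 at -0.38. Before the dye term that array read 0.70 for Tyk2 and -0.24 for Nfkb1, beside 0.68 and -0.38 on the self-self array of experiment 3. Of a list of 23 further antimicrobial genes, which shares Itln1 with the Paneth cell list and Zg16 with the goblet cell list, 14 were measured and 0 passed (limma, 2 higher and 0 lower at an unadjusted p under 0.05); the highest was Duoxa2, the maturation factor of the dual oxidase Duox2, at 0.95 ± 0.22 (adjusted p = 0.178), and the lowest Zg16, a goblet cell lectin, at -0.47 ± 0.21 (adjusted p = 0.432).

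Markers of several intestinal cell types moved with some of these results. In bulk RNA, fewer cells of a type and less RNA per cell cannot be told apart. All 22 enterocyte genes were below 0 over the 3 Ascl2_OE arrays (median -0.62, from Apoa1 at -0.35 to Cyp3a11 at -1.36). Of these, 0 passed the adjusted p while 20 had an unadjusted limma p under 0.05, as did 6.74% of all genes on the lower side. On the Ascl2_OE array of experiment 2 alone, 4 of 22 were above 0. The drop was not particular to Ascl2_OE: in Tcf7l2null 20 of 21 were below 0 (median -0.77). Of all genes, 9473 of 19335 were below 0 over the 3 Ascl2_OE arrays and 9678 of 19319 in Tcf7l2null. After a dye term estimated from the other arrays, 17 of 22 enterocyte genes were below 0 on the self-self array of experiment 2 (median -0.20). On that of experiment 3, 11 of 22 enterocyte genes were. In Tcf7l2null with Ascl2_OE, 11 were above and 11 below 0 (median -0.0016). In experiment 1 alone 7 of 22 passed, all lower, as did 0.564% of all genes. Of 12 measured Paneth cell genes, 8 were at least 2-fold lower on the Ascl2_OE array of experiment 2 (median -1.50) and 8 in Tcf7l2null with Ascl2_OE (median -1.27). Of all genes, 0.974% and 1.73% were. Ang4, a Paneth cell ribonuclease, stood at -2.02 and -2.73 there. Spink4, which the Paneth cell list shares with the goblet cell list, stood at 0.15 and 0.07. The Paneth median was 0.10 in experiment 1 and 0.36 in Ascl2null, beside 0.36 on the self-self array of experiment 3. Of 25 enteroendocrine genes, 11 lay 2-fold or more above the control in Ascl2null and 4 as far below it (2.14% and 1.39% of all genes), with a median of 0.77, Gcg, the glucagon gene, highest at 4.61 and Pax4, a factor of endocrine progenitors, lowest at -3.19. In experiment 1 the median was -0.34, 6 passed, all lower, and Gcg stood at -1.61 and Nts, the neurotensin gene, lowest at -2.29. At least 2-fold higher were 7 each on the Ascl2_OE array of experiment 2 and in Tcf7l2null with Ascl2_OE (1.13% and 0.901% of all genes), where Gcg was 3.84 and 4.03. On each, 1 was at least 2-fold lower (0.974% and 1.73% of all genes), Pax4 at -1.365 and -1.26. The medians were 0.05, with 12 of 25 below 0, and 0.34, with 4 of 25 below 0. Gcg was therefore high on the same 3 arrays as Reg1. Its self-self values were -0.01 and -0.05 before the dye term. With a dye term estimated from the other arrays removed, they were -1.17 and -1.23. Of 11 tuft cell genes, 5 were at least 2-fold higher on the Ascl2_OE array of experiment 2 (median 0.81) and 7 in Tcf7l2null with Ascl2_OE (median 1.09). Of all genes, 1.13% and 0.901% were. The tuft medians were -0.12 in experiment 1 and 0.22 in Ascl2null. Of 19 stem cell genes, 3 passed higher in experiment 1 (median 0.46), as did 0.362% of all genes, and the median in Tcf7l2null was 0.50. On the self-self arrays the stem medians were 0.24 in experiment 2, with 16 of 19 above 0, and -0.03 in experiment 3. The medians were -0.54 on the Ascl2_OE array of experiment 2, -0.69 in Tcf7l2null with Ascl2_OE and -0.49 in Ascl2null, where 18 were measured. The part of these cell types in the Reg values was not tested.

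Reg genes are also made by pancreatic acinar cells, and their markers were followed as well. Of 24 acinar genes, 12 were well above background on all 8 arrays and 18 were measured, with medians of 0.03 over the 3 Ascl2_OE arrays (from Rnase1 at -0.24 to Pnliprp1 at 0.46), 0.01 in Tcf7l2null, -0.03 in Tcf7l2null with Ascl2_OE and 0.09 in Ascl2null, where 17 were measured. Single genes departed further: Ctrb1, a chymotrypsinogen, stood at 2.21 in Tcf7l2null and -1.82 in Tcf7l2null with Ascl2_OE, Rnase1 at -1.23 on the Ascl2_OE array of experiment 2, and Sycn at 1.29 and Rnase1 at -1.19 in Ascl2null. Of 12 immune and stromal genes, 10 were measured, with a median of 0.00 over the Ascl2_OE arrays and Lyz2, the macrophage lysozyme, lowest at -0.67. On the Ascl2_OE array of experiment 2, Lyz2 was the 1 gene of the list at or beyond 2-fold, lower.

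The genes whose 6 ratios followed each member most closely were found among 1849 genes well above background on all 8 arrays with an SD of at least 0.5, by Pearson correlation over the 6 arrays that are not self-self, which share controls and slides. For Reg1 they were Zfp354a and Tle4 (r = 0.993 each), Slc13a1 (0.990), Akr1b8 and Sst (0.989 each). Akr1b8, an aldo-keto reductase, came closest in size too, at 3.06, 2.65 and 2.57 on the 3 arrays where Reg1 was high, and Sst encodes the hormone somatostatin. For Reg3a they were Cyp3a41a (0.99), LOC676449, Ndrg2, Cyp2d34 and Dnah2 (0.962), for Reg3b Slc35e2 (0.984), Afm, Slc35e3, TC1592407 and 1110012J17Rik (0.973), and for Reg4 Trip6 (0.997), Impact, Muc3, NAP031654-1 and Gdpd2 (0.982). Reg3g had no gene as close: Adgrv1 came first at 0.865, before 2810452K05Rik, Csta2, St3gal4 and Csnk1e (0.782). Among the family, the ratios of Reg1 and Reg3b had r = 0.89 over these 6 arrays and those of Reg3g and Reg3b 0.19. These values describe 6 arrays and carry no test.

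**Figure D5:**
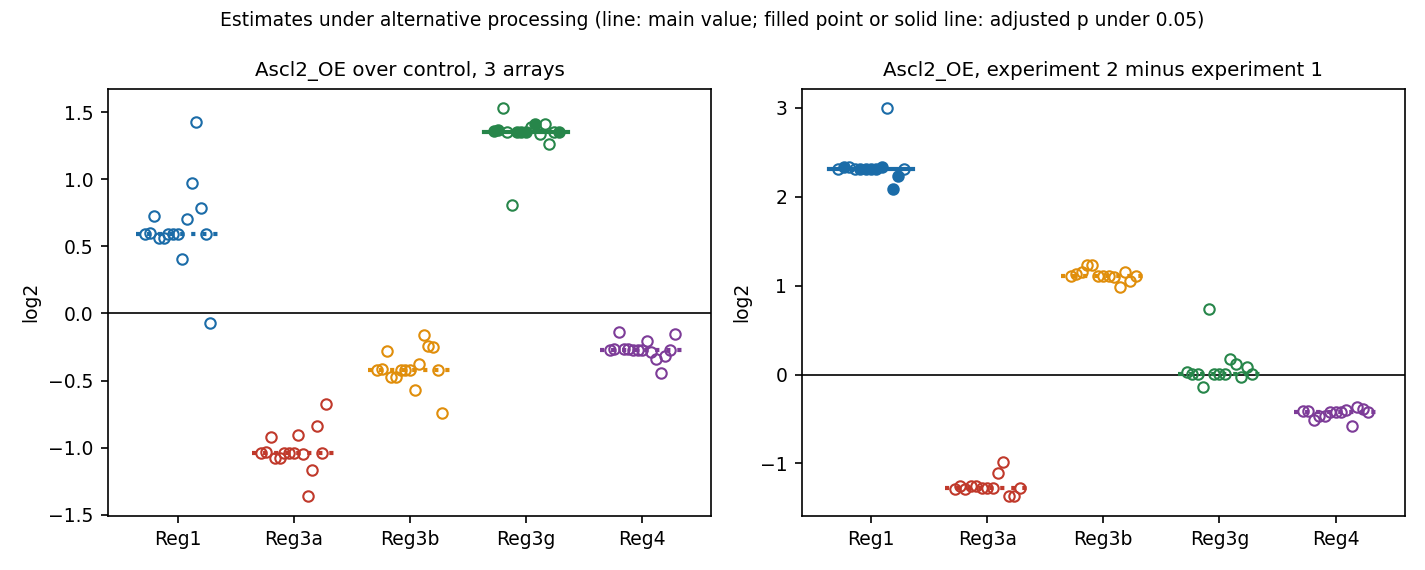
Estimates for the 5 members under each alternative processing (points) beside the reported value (horizontal line), in log2, for Ascl2_OE over control on 3 arrays (left) and for experiment 2 minus experiment 1 (right); filled points and solid lines have an adjusted p under 0.05. Reg3g stays between 0.81 and 1.53 on the left, and the difference of Reg1 between 2.09 and 2.99 on the right.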

How the data were processed

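RNA of small intestinal organoids, 500 ng per labelling per the labels' protocols, was measured on 8 two-colour Agilent mouse arrays scanned with Feature Extraction 10.5.1.1, per the file headers. The deposited scanner files give an intensity of the spot and of its surroundings for both channels and a log10 ratio of Cy5 over Cy3, and the authors' deposited value table gives log2 ratios, whose column for replicate 2 of experiment 1 runs against the scanner ratio (r = -0.8456 over spots). The medians of that table's columns lay between -0.01 and 0.03, its log2 scale was read from its match to the scanner ratio, and no source used here states its other processing. The median intensity was used because only the files of experiment 1 hold a mean intensity and gene names, which were joined to the other files by spot number.

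Background was corrected with normexp (offset 50) and each array was normalised by loess, with control and outlier spots at weight 0 (R 4.3.3, limma 3.58.1). On 54 spots in all, 0.015%, the local background exceeded the spot by more than 50; 51 of them were on replicate 2 of experiment 1, where they forced the normexp fit to add a large constant to all spots. These spots were left out, a choice made after the data were seen, and the fit with them is an alternative. Of 41174 probes, 27615 had a channel well above background on at least 2 arrays, and each of 19335 genes was read from its brightest probe. The RefSeq table (GRCm38.p6) named 26918 probes by accession; the others kept the name of the array design.

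Log2 own RNA over control was fitted with limma (lmFit, eBayes) on all 8 arrays, with a dye term and 1 effect per condition (3 residual degrees of freedom), or 1 Ascl2_OE effect per experiment (2 residual degrees of freedom), p-values being adjusted over all genes by Benjamini-Hochberg with a threshold of 0.05. Values per array are before the dye term unless stated. Conditions with 1 array have values only. Channel levels are after loess and Aquantile scaling. Upstream sequences were aligned with Biopython 1.88. Precision is limited by how few arrays there are. The fit was tested on simulated data with normal noise and 1 Ascl2_OE effect shared by the 3 arrays. Such data cannot show how the fit behaves where the experiments differ, as they did for Reg1. The members, lists and rules for named genes (all family genes, the highest and lowest member of each list described, and the 5 genes most like each member) were chosen with earlier results of these data known.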

Additional observations from a re-analysis of the deposited data

Results flagged for a closer look

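Reg1 is given here because the test of the difference itself separated the 2 experiments under the same label: Ascl2_OE in experiment 2 minus Ascl2_OE in experiment 1 was 2.32 ± 0.33 on the log2 scale (limma adjusted p = 0.0414), with values of 0.17 and -0.31 on the arrays of experiment 1 and 2.26 on that of experiment 2. The experiments also differ in slide, control RNA (VillinCreERT2 or dsGFP), which cannot be told apart, and the time of RNA extraction is given in the labels for experiment 1 alone. In the same comparison 147 genes passed, of which Reg1 was the only Reg family gene.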

How the results depend on the processing

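Reg3a, Reg3b and Reg4 kept their sign and stayed above an adjusted p of 0.05 under all 15 alternatives for Ascl2_OE over 3 arrays and all 13 for experiment 2 minus experiment 1. Reg3g kept its sign for Ascl2_OE; its adjusted p was above 0.05 with median centring (0.931), the scanner log ratio (0.2), the authors' deposited table (0.296), a dye term per slide (0.166), either replicate of experiment 1 left out, the normexp fit with all spots (0.0948), and a trend and robust prior (0.133). Its difference between experiments was 0.74 with the authors' deposited table, turned to -0.14 with the scanner log ratio and lay between -0.028 and 0.11 when a replicate was left out. Reg1 over 3 arrays lay between -0.072 (without experiment 2) and 1.43 when an array was left out. The cause was not tested. The Reg1 difference had an adjusted p above 0.05 without background correction (0.0755), with median centring (1), the scanner log ratio (0.143), a trend and robust prior (0.059) and without replicate 1 (0.0628).

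The 12 genes called for Ascl2_OE became 0 with median centring (1015 at an unadjusted p under 0.05), the scanner log ratio (1938), the authors' table (2152), a dye term per slide (3750) and the normexp fit with all spots (1323), 22 without a filter on dim probes, 174 without a dye term and 2 with a trend and robust prior; leaving out 1 array gave 0 to 179. The 147 genes of the difference became 240 with offset 16, 0 with median centring (627 unadjusted), 232 with the authors' table, 315 without a dye term, 84 with all spots and 92 with a trend and robust prior; leaving out a replicate gave 23 to 148. Without residual degrees of freedom, the difference could not be tested with a dye term per slide. Genes beyond 2-fold numbered 682 in Ascl2null, but 1532 with median centring, 2009 with the scanner ratio and 1885 with the authors' table; 185 in Tcf7l2null, but 1443 (scanner ratio), 944 (authors' table), 406 (dye term per slide) and 110 (all spots); 508 in Tcf7l2null with Ascl2_OE, but 1862 (scanner ratio), 1406 (authors' table) and 307 (dye term per slide); and 1490 for their difference, but 3729 (scanner ratio) and 2609 (authors' table). No paired analysis was possible because only experiment 1 has replicate numbers. The fit with all spots was added after seeing the data.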
